A study of Mus musculus with 6 samples.

Results

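Sox9, Sox5, Sox6, Sox8, Sox4, Sox11, Sox12 and Sox13 are the Sox transcription factors usually met in cells that build the skeleton. Every array feature annotated to 1 of these 8 gene names was taken, which gave 13 probes on 22 spots, of 55681 probes on 59305 spots in all. The levels come from 6 one-colour microarrays of total RNA from mouse embryos at 15.5 days of gestation, 3 of the outer interzone and 3 of the intermediate interzone, with 1 embryo behind each replicate. The interzone is the band of flattened cells that separates neighbouring cartilage elements where a synovial joint will form, and its outer layers lie next to the cartilage while the intermediate layer lies between them. No genotype, strain, joint or treatment is named for the embryos, and the labels do not say how the layers were isolated. They also do not say whether the same replicate number in both layers marks the same embryo. All RNA was amplified before labelling. The comparison throughout is outer against intermediate interzone.

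Sox proteins bind DNA through a shared HMG box and are sorted into groups by that box. SOX9, of group E, is required for mesenchymal cells to become chondrocytes and binds enhancers of cartilage matrix genes. SOX5 and SOX6, of group D, have no activation domain of their own and act beside SOX9 on the same genes, while SOX4, SOX11 and SOX12, of group C, act in progenitor cells of many tissues, the early skeleton and joint among them. SOX8 is the group E relative of SOX9, and SOX13 the third member of group D.

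The probes decide what can be said of some of these genes, and those of Sox5 most of all. Sox9, Sox6, Sox8, Sox12 and Sox13 each had 1 probe, Sox11 had 2, and Sox4 and Sox5 had 3 each. Most probes held a mixed sequence, as the first 30 bases of the Sox9 probe do. The brightest Sox5 probe, A_55_P2156905, instead consisted of 25 A and 35 G, with 0 C and 0 T, and held GGA 16 times, and the array annotation (mm9) places only 27 of its 60 bases, at chr6:143776945-143776971 on the minus strand. Bases are shown in lower case 5′ to 3′ with every GGA in capitals, for that probe, the Sox9 probe, the other Sox5 probes, and probes for Vash1 and Cplx2, which carry the same repeat.
Sox9 A_52_P214630: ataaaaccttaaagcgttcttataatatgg
Sox5 A_55_P2156905: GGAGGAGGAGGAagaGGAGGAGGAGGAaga
Sox5 A_51_P500318: ttacaagcaaaaacgtcatcaagaagaaga
Sox5 A_55_P2088765: ctgggcccatgggcaaattcaatcagatgc
Vash1 A_55_P2179604: gaGGAGGAGGAGGAGGAGGAGGAGGAGGAg
Cplx2 A_55_P2067960: aGGAGGAGGAGGAGGAGGAGGAGGAGGAgg

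A level below is the log2 of a probe's background-corrected signal over its array's 75th percentile, so it can be compared between arrays for 1 probe but not between probes. A probe was tested where 1 layer or both had signal well above background on all 3 arrays, which held for 23884 probes. A difference is the outer mean minus the intermediate mean on that log2 scale, tested with limma, and a change was called at an adjusted p under 0.05 over all tested probes. Of the 13 Sox probes, 9 were tested, for 6 genes, and all 9 were well above background on all 6 arrays. The single probes of Sox8 and Sox12, and the other 2 of Sox5, were not tested.

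The arrays differed in brightness. The 75th percentile of signal was 47.4, 290 and 150 for outer replicates 1, 2 and 3, against 144, 265 and 344 for the intermediate ones, and 35.6% to 53.4% of outer spots stood well above background against 45.1% to 52.8% of intermediate spots. Outer replicate 1 was thus the dimmest array, and it shared slide 1 with all 3 intermediate arrays, while slide 2 held only outer replicates 2 and 3. Over all tested genes the median difference was 0.10, and it was -0.29 when arrays were scaled to their median instead.

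**Figure D1:**
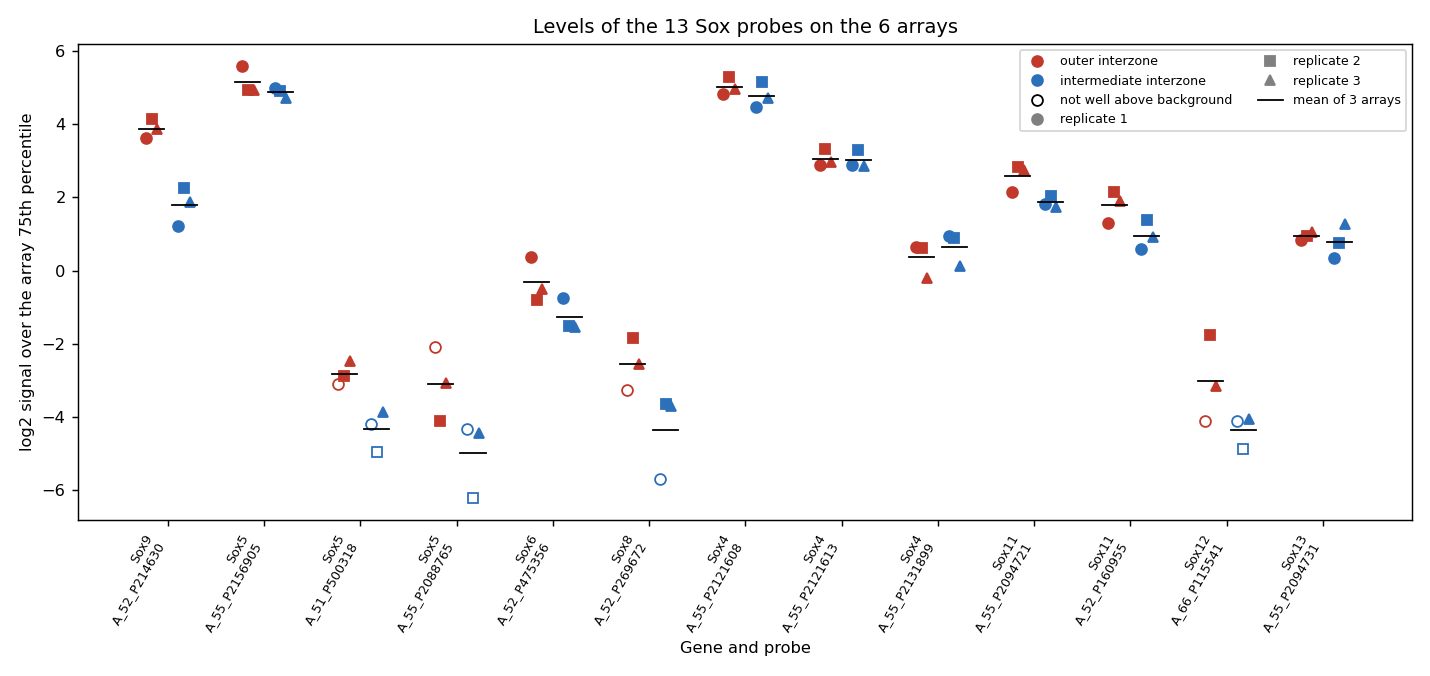
Level of each of the 13 Sox probes on the 6 arrays, as log2 signal over the array's 75th percentile (y axis), with outer arrays in red left of intermediate arrays in blue, 1 marker shape per replicate, open symbols for arrays where the probe was not well above background, and bars for the mean of 3 arrays. The Sox9 groups stand apart, the bright Sox5 probe and the Sox4 probes lie at like heights in both layers, and open symbols appear for Sox8, Sox12 and the 2 dim Sox5 probes alone.

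Among the Sox genes, Sox9 was the one called, and it was higher in the outer interzone. Its probe, at chr11:112648809-112648868 on the plus strand (mm9), read 3.63, 4.13 and 3.86 on the outer arrays, against 1.23, 2.26 and 1.87 on the intermediate arrays. Every outer array lay above every intermediate array, and the gap between the groups was wider than either group's own range. The means were 3.87 ± 0.25 for the outer layer and 1.78 ± 0.52 for the intermediate layer (SD, n = 3 each). The difference was 2.09 with a standard error of 0.29 and a 95% interval of 1.40 to 2.78, which is 4.26-fold (limma adjusted p = 0.0177). Same-numbered replicates differed by 2.40, 1.88 and 1.99. Of 18003 tested genes, Sox9 had the difference that ranked 119 from the top, so the gene was among the more changed ones without leading them.

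The Sox9 value rests on more spots than those of the other Sox genes, because the array carries its probe 10 times. After spots marked as outliers were left out, 8 to 10 remained per array, and their SD within an array was 0.0311 to 0.124 on the log2 scale. The spots of a single array had a smaller SD than the arrays of their layer, by the least margin on outer replicate 3, whose spots ran from 3.58 to 4.01. The call was less firm than the separation of the groups. Within slide 1, where the 1 outer array was assumed to vary like the others, the difference was 1.84. Blocking on slide returns that same contrast, because slide 2 held no intermediate array to compare with. Both fits take the outer layer from outer replicate 1 alone, so they are 1 check and not separate ones. Without outer replicate 3 or intermediate replicate 3 the difference was 2.10 and 2.13 (limma adjusted p = 0.0696 and 0.0809). Because this is bulk RNA, fewer cells of a type and less RNA per cell cannot be told apart, here and in what follows.

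**Figure D2:**
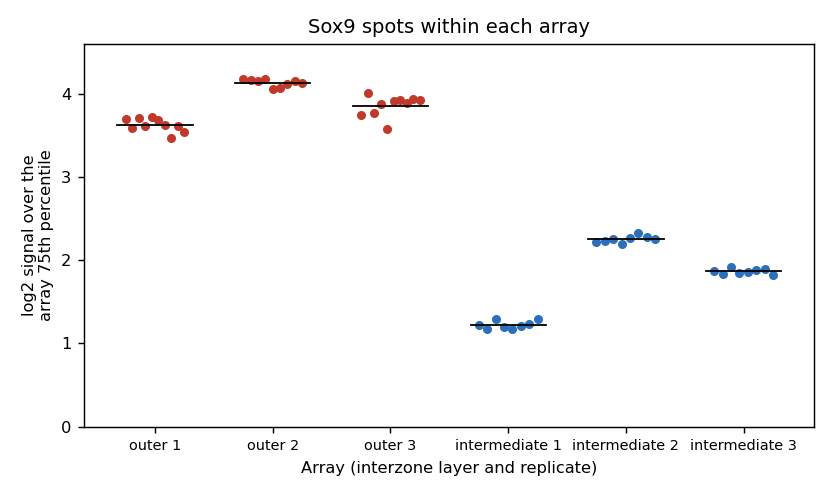
Level of the single spots of the Sox9 probe on each array (y axis, log2 signal over the array's 75th percentile), with outer arrays in red on the left, intermediate arrays in blue on the right, and a bar at the mean of the spots used. The 8 to 10 spots of an array lie close together, and all spots of the outer arrays lie above all those of the intermediate arrays.

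Sox6 did not pass, although its values leaned the same way. The probe, at chr7:122615418-122615477 on the minus strand, read 0.37, -0.80 and -0.49 on the outer arrays, against -0.74, -1.51 and -1.55 on the intermediate arrays. The groups overlapped by a little, since intermediate replicate 1 lay above outer replicate 2. Replicate by replicate the outer array was higher by 1.11, 0.71 and 1.05. The difference was 0.96 with a 95% interval of 0.11 to 1.81 (limma adjusted p = 0.201). With the replicate number as a block the same difference had an adjusted p of 0.0393 and was called, and within slide 1 the difference was 1.64 (adjusted p = 0.0564).

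For Sox5 the 3 probes gave unlike values. The GGA-rich probe read 5.60, 4.94 and 4.94 on the outer arrays, against 4.98, 4.91 and 4.72 on the intermediate arrays, and the groups overlapped. Its difference was 0.29 with an interval of -0.26 to 0.84 (limma adjusted p = 0.526), and it turned to -0.10 when arrays were scaled to their median. Probe A_51_P500318, at chr6:143781520-143781579, read -3.10, -2.88 and -2.46 on the outer arrays, against -4.19, -4.94 and -3.86 on the intermediate arrays. Here the groups did not overlap, but the probe had signal well above background on 2 of 3 outer arrays and 1 of 3 intermediate arrays.
Probe A_55_P2088765, at chr6:143787982-143788041, read -2.09, -4.09 and -3.07 on the outer arrays, against -4.31, -6.21 and -4.44 on the intermediate arrays, again without overlap and with signal on 2 of 3 outer and 1 of 3 intermediate arrays. Fitted with every probe on the array and no filter, these 2 dim probes differed by 1.52 and 1.90 (adjusted p = 0.302 and 0.463). So the only tested Sox5 value came from the repeat probe, and both probes of mixed sequence were near background in each layer.

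Probes like the Sox5 repeat could be examined as a class. The array held 23 probes made of A and G alone, for Vash1, Cplx2, Gcm1, Pigr, F10 and other transcripts as well as Sox5, and 22 of them passed the signal filter (95.7%, against 42.9% of all probes). All 22 differences were positive, from 0.20 to 1.97 with a median of 0.86, and limma called 0, with 12 at an unadjusted p under 0.05. The shared sign depended on the scaling. With arrays scaled to their median every difference drops by the same amount, and that of the Sox5 probe was -0.10. Over all tested probes the median difference was 0.0858. No share of them with a positive difference or at that unadjusted p was taken. The Vash1 and Cplx2 probes printed above were picked from the 3 genes nearest to the Sox5 repeat probe. Nearness was ranked by level over the 6 arrays, out of 11208 genes well above background on every array. Their nearness is thus how they were chosen and no separate evidence. Likeness was measured as the root mean square difference of levels after each gene was centred on its mean, and it was 0.042 for Vash1 and 0.052 for Cplx2. The third, Cep63, at 0.052, has a probe with 30 C or T. The files place the Vash1 and Cplx2 probes on chromosome 6, as they do the Sox5 probe. These probe positions were not checked against the positions of the genes they are named for. What RNA these repeat probes bound was not tested, and no direction is given here for Sox5.

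**Figure D3:**
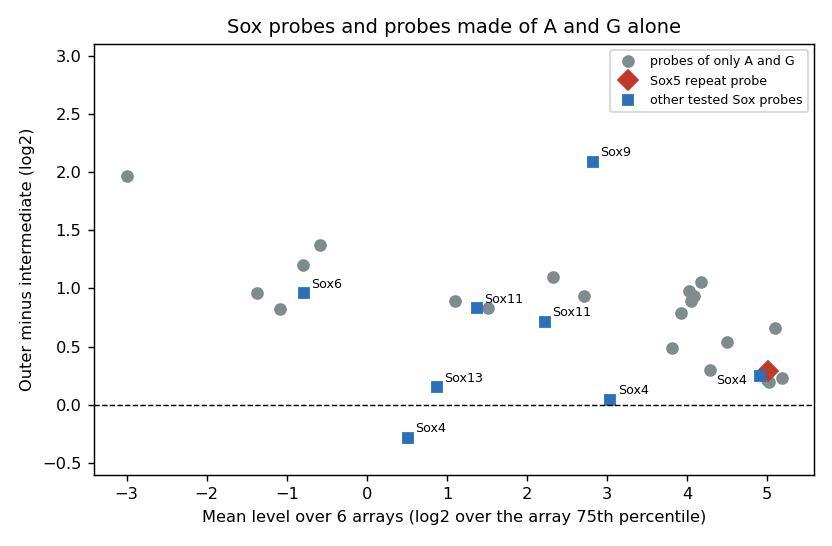
Difference outer minus intermediate (y axis, log2) against the mean level over 6 arrays (x axis, log2 over the array's 75th percentile) for the 22 tested probes of A and G alone (grey, the Sox5 probe as a red diamond) and the other 8 tested Sox probes (blue, named). With this scaling all 22 repeat probes lie above 0, and the Sox5 diamond sits among the brightest of them, with small differences.

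Sox8 was measured on part of the arrays only. Its probe, at chr17:25703094-25703153, read -3.25, -1.84 and -2.55 on the outer arrays, against -5.68, -3.65 and -3.70 on the intermediate arrays. The groups did not overlap, and the probe was well above background on replicates 2 and 3 of each layer but on replicate 1 of neither. Without the filter the difference was 1.80 with an interval of 0.15 to 3.45 (limma adjusted p = 0.461).

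Of the group C genes Sox4 and Sox11 were tested, Sox11 had the larger differences of these, and it did not pass. Probe A_55_P2094721, at chr12:28020087-28020146, read 2.16, 2.83 and 2.76 on the outer arrays, against 1.83, 2.04 and 1.73 on the intermediate arrays. The groups did not overlap, with the lowest outer array just above the highest intermediate one. The difference was 0.72 with an interval of 0.17 to 1.26 (limma adjusted p = 0.150), and the pairs differed by 0.33, 0.78 and 1.03. Probe A_52_P160955, at chr12:28019541-28019600, read 1.30, 2.15 and 1.91 on the outer arrays, against 0.58, 1.38 and 0.92 on the intermediate arrays, and its groups overlapped. Its difference was 0.83 with an interval of 0.13 to 1.53 (adjusted p = 0.184), and the fit blocked on replicate number called it (adjusted p = 0.0411). Within slide 1 both differences were smaller, at 0.29 and 0.34 (adjusted p = 0.580 and 0.620).

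Sox4 had signal well above background on all 6 arrays with each of its 3 probes, and none of them passed. The last probe on the transcript, A_55_P2121608 at chr13:29040826-29040885, read 4.83, 5.28 and 4.97 on the outer arrays, against 4.48, 5.15 and 4.71 on the intermediate arrays. The middle one, A_55_P2121613 at chr13:29042856-29042915, read 2.90, 3.32 and 2.97 on the outer arrays, against 2.88, 3.30 and 2.87 on the intermediate arrays. These groups all but coincided, array by array. The third, A_55_P2131899 at chr13:29044482-29044541, lies in the coding sequence at the end of the HMG box, the part that Sox proteins share, and its 60 bases are given whole for that reason.
Sox4 A_55_P2131899: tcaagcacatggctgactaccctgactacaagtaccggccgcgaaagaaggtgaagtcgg
This probe read 0.66, 0.63 and -0.19 on the outer arrays, against 0.94, 0.89 and 0.12 on the intermediate arrays, so that each outer array was below its numbered partner. The differences of the 3 probes were 0.24, 0.04 and -0.28, with intervals of -0.31 to 0.80, -0.45 to 0.54 and -1.05 to 0.49 (limma adjusted p = 0.600, 0.928 and 0.669). The signs of all 3 depended on the scaling or on the slide. The coding probe and the last probe start 3656 bases apart, and the difference of the coding probe was lower than that of the last probe by 0.53 on average, at -0.63, -0.39 and -0.56 in the 3 pairs (SD 0.12). That quantity stays the same whatever factor an array is divided by. The cause was not tested.

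Sox12, the third group C gene, was near background. Its probe, at chr2:152220036-152220095, read -4.10, -1.75 and -3.16 on the outer arrays, against -4.09, -4.86 and -4.06 on the intermediate arrays. The groups overlapped, and the probe stood well above background on outer replicates 2 and 3 and on intermediate replicate 3. Without the filter its difference was 1.33 with an interval of -0.23 to 2.89 (limma adjusted p = 0.530). Sox13 was measured on all arrays, at chr1:135279099-135279158, with 0.84, 0.94 and 1.07 on the outer arrays, against 0.36, 0.75 and 1.28 on the intermediate arrays. Its groups overlapped, the pairs differed in sign, and the difference was 0.15 with an interval of -0.45 to 0.76 (limma adjusted p = 0.781).

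Counted together, 1 of the 9 tested Sox probes was called higher in the outer interzone and 0 lower, where 1.33% of all tested probes were called higher, 2.16% lower and 3.48% in either direction. At an unadjusted p under 0.05 there were 4 higher and 0 lower, a count for which no share over all tested probes was taken. Outer and intermediate arrays did not overlap for 2 of the 9, both higher in outer, where 14.8% of all tested probes did the same and 26.3% were apart in either direction. The outer array was higher in all 3 numbered pairs for 7 of 9 probes, against 35.5% of all tested probes. With the replicate number as a block 3 of the 9 were called, those of Sox9 and Sox6 and 1 of Sox11, against 3.5% of all tested probes called higher in that fit. The median difference of the 9 probes was 0.29, against 0.0858 over all tested probes. The count thus rests on Sox9 in the unblocked fit.

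**Figure D4:**
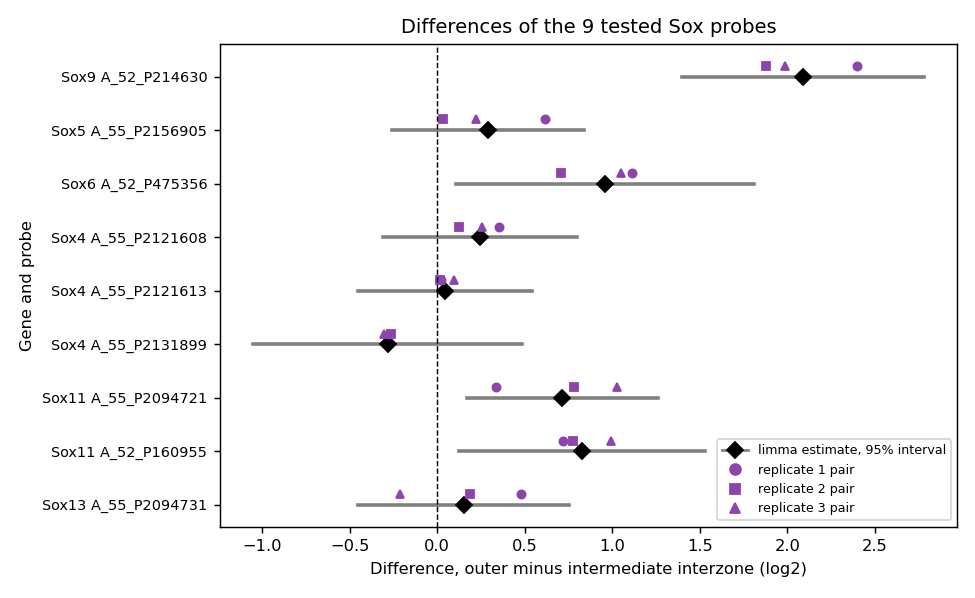
Difference outer minus intermediate (x axis, log2) of the 9 tested Sox probes, with limma's estimate as a black diamond, its 95% interval as a grey bar, and the 3 same-numbered pairs as purple symbols. The Sox9 interval lies farthest from 0, the intervals of Sox6 and Sox11 lie above 0 at 0.11 and more, and those of Sox5, Sox4 and Sox13 include 0.

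Setting Sox9 against the other members array by array removes the choice of scaling factor, since both probes share that of their array. Sox9 shifted by 1.85 more than the last Sox4 probe, by 1.94 more than Sox13 and by 1.80 more than the Sox5 repeat probe. With each probe's intermediate mean taken as 0, Sox9 minus that Sox4 probe was 1.79, 1.86 and 1.89 on the outer arrays, against -0.26, 0.10 and 0.16 on the intermediate arrays.
Against the Sox11 probes the shift was 1.37 and 1.26, and against Sox6 it was 1.13. The values of the layers did not overlap for any of these except Sox6. The smallest gap to Sox9 was thus that of Sox6, followed by Sox11, and the gaps of Sox4 and Sox13 were larger. Sox9, Sox5 and Sox6, the genes of the cartilage program, could not be set as a group against the others, because Sox5 rests on the repeat probe and Sox6 had no call in the unblocked fit. These shifts are descriptions without a test.

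Over the 6 arrays the genes most like Sox9 were Mia, a small secreted cartilage protein also called CD-RAP (0.104), Bmp2, a bone morphogenetic protein (0.145), and Rflna, a filamin-binding protein (0.162). They were called higher in outer, by 2.05, 1.94 and 1.96 (limma adjusted p = 0.0122, 0.0184 and 0.0163). Since they were picked for levels like those of Sox9, a like difference followed from the choice and is no separate evidence. Nearest to Sox11 were Gm6003, Nog, which encodes the BMP antagonist noggin (0.071), and Prx. Sox6 was followed most closely by Pramel20, Tm6sf2 and Gfy, Sox4 by Ogfr, Hint2 and Snrpa1, and Sox13 by Snx24, Igf2r and Obsl1. The closeness is a description alone, over arrays that share a layer, a slide or both.

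Cartilage genes that SOX9 binds or activates were mostly higher in the outer interzone. Of 28 listed genes, all tested, each by its brightest probe, 20 were called higher and 0 lower. Of all tested genes, 1.44% were called higher, 2.28% lower and 3.73% in either direction. At an unadjusted p under 0.05 the counts were 24 higher and 0 lower, for which no share over all tested genes was taken. The median difference of the 28 was 2.94 against 0.10 over all tested genes. The largest differences were those of Ucma (6.497), a Gla-rich secreted protein of cartilage, Matn1 (5.997), the matrix protein matrilin 1, Cytl1 (5.91), a secreted protein, Snorc (5.85), a chondrocyte proteoglycan, and Susd5 (5.01). Susd5 read 3.37, 2.70 and 2.48 on the outer arrays, against -2.39, -2.21 and -1.87 on the intermediate arrays (limma adjusted p = 0.0029). Ucma, Matn1, Snorc and Matn3 were well above background on only 1 of 3 intermediate arrays, so they passed the filter through the outer layer alone, where they are high, and their differences rest on intermediate signals close to background. Where signal was required on all 6 arrays, 16 cartilage genes were called higher, and 280 of all 18805 such probes were.

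Of the 28 genes, 17 had a larger difference than Sox9. Without Sox5 and Sox6 the list held 26 genes, with a median of 3.13 and a mean level of 3.46 to 3.77 on the outer arrays, against 0.35 to 1.02 on the intermediate arrays. Those that did not pass, besides Sox5 and Sox6, were Pth1r (0.10), Chst11 (0.65), Col27a1 (0.78), Comp (0.87), Col11a1 (0.92) and Scrg1 (1.58). The list was drawn up with results of these data known, so its count is not independent evidence of a direction. The count called higher was 9 without intermediate replicate 3, and 12 without intermediate replicate 1 or outer replicate 3. Blocked on replicate number it was 24, where 3.5% of all tested probes were called higher.

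**Figure D5:**
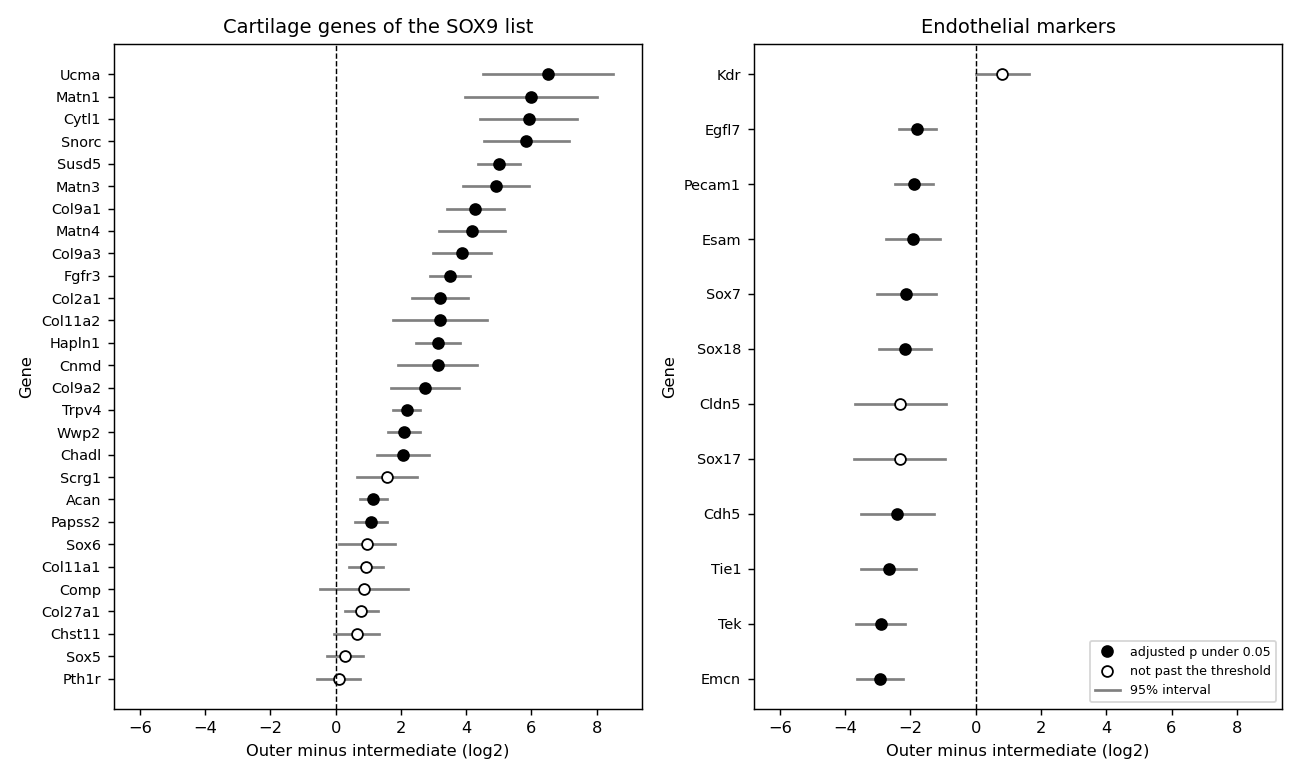
Difference outer minus intermediate (x axis, log2) with its 95% interval for each tested gene of the SOX9 cartilage list (left) and of the endothelial list (right), filled where the adjusted p was under 0.05. All 28 cartilage points lie right of 0, and of the 12 endothelial genes only Kdr does. The Sox5 point is that of the repeat probe, which was at -0.10 with arrays scaled to their median.

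Of the genes whose proteins bind SOX9 or regulate it, a single one was called. Of 20 listed, 19 were tested, 1 was called higher and 0 lower by limma. Of all tested genes, 1.44% were called higher and 2.28% lower. At an unadjusted p under 0.05 there were 3 higher and 2 lower, for which no share over all tested genes was taken. The median difference of the 19 was 0.01. The one called was Wwp2, a ubiquitin ligase that is also a SOX9 target, at 6.93 ± 0.31 on the outer arrays and 4.83 ± 0.08 on the intermediate arrays (SD, n = 3 each), with a difference of 2.10 (limma adjusted p = 0.00787). With the replicate number as a block 1 of the 19 was also called lower, against 3.84% of all tested genes in that fit.

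Genes linked to SOX4 and SOX11 did not pass. Of 14 listed, 12 were tested, and limma called 0 in either direction, against 3.73% of all tested genes. The median difference was 0.28. At an unadjusted p under 0.05 there was 1 higher and 0 lower, for which no share over all tested genes was taken. The brightest of the 12 were Tmsb10, a small actin-binding protein, at -0.44, and Stmn1, the microtubule regulator stathmin, at 0.30. Gdf5, the growth factor that marks the interzone and a reported target of SOX11, averaged 5.69 ± 1.07 on the outer arrays and 5.69 ± 0.89 on the intermediate arrays (SD, n = 3 each), with a 95% interval of -1.46 to 1.45 for the difference (limma adjusted p = 0.998).

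Among the other Sox genes on the array, the called ones were lower in the outer interzone. Of 12 such genes 5 were tested, and 2 were called lower in the outer interzone and 0 higher. Of all tested genes, 2.28% were called lower and 1.44% higher. At an unadjusted p under 0.05 there were 3 lower and 0 higher, for which no share over all tested genes was taken. Sox18, a group F gene of blood and lymph vessel endothelium, read -1.64, -0.29 and -0.92 on the outer arrays, against 1.10, 1.19 and 1.38 on the intermediate arrays. Its groups were far apart, with a difference of -2.17 (limma adjusted p = 0.0222). Sox7, of the same group, read -2.35, -1.13 and -1.94 on the outer arrays, where 2 of 3 were well above background, against -0.20, 0.27 and 0.88 on the intermediate arrays, with a difference of -2.13 (adjusted p = 0.0356). The third group F gene, Sox17, had 2 probes, with differences of -2.33 and -2.09 (adjusted p = 0.0883 and 0.0977). Sox7 and both Sox17 probes had signal well above background on 2 of 3 outer arrays and passed the filter through the intermediate layer. Blocked on replicate number, the fit called 3 of the 5 lower, against 3.84% of all tested genes, and with that block and quantile normalization together 0 were. The count was also 0 without outer replicate 3 or any 1 of the 3 intermediate arrays, 1 without outer replicate 1, and 1 with normexp, with quantile normalization or with signal required on all 6 arrays.

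Most markers of endothelium shared that direction. Apart from Sox7, Sox17 and Sox18, 9 endothelial markers were tested, and 7 were called lower and 0 higher. Of all tested genes, 2.28% were called lower and 1.44% higher. The mean level of the 9 markers was -0.32 to 0.53 on the outer arrays, against 1.98 to 2.29 on the intermediate arrays. Emcn (-2.93), Tek (-2.92), Tie1 (-2.67) and Cdh5 (-2.40), all proteins of the endothelial surface, were among those called. Emcn, Tek and Tie1 had signal well above background on 2, 1 and 2 of 3 outer arrays and passed the filter through the intermediate layer. Cldn5 did not pass, at -2.32, and Kdr, the VEGF receptor, did not pass either and was at 0.82 (adjusted p = 0.238). With the group F genes included, 9 of 12 were called lower. The count was 11 with the replicate block, where 3.84% of all tested genes were called lower. It was 5 with signal required on all 6 arrays, where 247 of 18805 probes were called lower, and 0 with the block and quantile normalization. The 9 became 11 without outer replicate 2, 8 without outer replicate 1, 2 without outer replicate 3, and 2, 5 and 0 without intermediate replicates 1, 2 and 3.

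Markers of leukocytes gave a like count. Of 12 tested leukocyte and macrophage markers 10 were called lower, against 2.28% of all tested genes. They were led by Cx3cr1 (-3.93), Mrc1 (-3.83), C1qa (-3.78) and Adgre1 (-3.78), each with signal well above background on 2 of 3 outer arrays. Lyz2, with signal well above background on 0 of 3 outer arrays, was 4.07-fold lower there, with dim outer levels raised as follows. Each outer level below its array's lowest signal well above background was raised to that signal. On outer replicate 2 Lyz2 read -4.54, above that array's lowest such signal of -4.68, and kept its value. The fold is therefore not a strict bound. Itgam did not pass and was at 0.76. The count of 10 was 4 with signal required on all 6 arrays, where 247 of 18805 probes were called lower. It was 0 with the replicate block and quantile normalization, 1 without outer replicate 3, and 2, 5 and 0 without intermediate replicates 1, 2 and 3. The part of these cells in the Sox differences was not tested.

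Among the remaining Sox genes no call was made. Sox1 and Sox21, known from the nervous system, had 2 tested probes each, with differences of 0.22 and 0.60 for Sox1 and 0.45 and -0.18 for Sox21. Sox10, the group E gene of Schwann cells, was well above background on 1 of 3 outer arrays and 2 of 3 intermediate arrays and was not tested. Sox2, Sox3, Sox14, Sox15 and Sry were well above background on no array, and Sox30 on intermediate replicate 2 alone. S100b, which Schwann cells and chondrocytes both express, was called higher by 2.59, and the neurofilament genes Nefl and Nefm were called lower, at -2.53 and -2.50, among 7 tested markers of Schwann cells and neurons. Of all tested genes, 1.44% were called higher and 2.28% lower. Nefm had signal well above background on 2 of 3 outer arrays and passed the filter through the intermediate layer.

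Markers of limb skeletal progenitors, of the joint and of tendon were called in part. Of 13 progenitor markers 1 was called lower, Prrx2 at -1.37, and 0 higher, and of 14 tested interzone and joint markers 3 were called higher, Wnt4 (3.41), Bmp2 (1.94) and Erg (0.95), and 1 lower, Gdf6 (-1.77), against the 1.44% and 2.28% of all tested genes. Gdf6 had signal well above background on 2 of 3 outer arrays and passed the filter through the intermediate layer. The 3 called higher became 1 without intermediate replicate 1 and 0 without outer replicate 3 or intermediate replicate 3. Of 9 tendon and ligament markers 1 was called lower, Eya2 at -2.38. With the replicate block 2 were lower and 1 higher, against 3.84% of genes called lower and 3.5% of probes called higher in that fit. Limma called 0 of 8 muscle, 0 of 4 erythroid and 0 of 4 epidermal markers, with 1 muscle marker lower at an unadjusted p under 0.05. The muscle and erythroid values depended on the fit. With slide as a block, where outer replicate 1 alone sets the difference, the median differences were -3.40 for muscle and -4.03 for erythroid markers. With the replicate block 0 muscle markers and 1 erythroid marker were called lower, against 3.84% of all tested genes. Outer replicate 1 stood apart in both lists, with a mean level of -2.24 for muscle where the other outer arrays had 1.33 and 1.46, against -0.35 to 2.41 on the intermediate arrays. For erythroid markers it was at 2.01 where the other outer arrays had 5.81 and 5.75, against 5.03 to 7.002 on the intermediate arrays. Without outer replicate 1 the median muscle difference was 0.29, in place of -0.94. The part of these cells in the Sox values of that array was not tested. The brightest of these were the muscle genes Actc1 (-1.14) and Tnnt1 (-0.58), the globins Hba-a1 (-1.49) and Hbb-bt (-1.21), and the epidermal Trp63 (0.69) and Krt10 (0.18).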

How the data were processed

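Total RNA of outer and intermediate interzone was amplified, labelled with Cy3 and hybridised to 1-colour Agilent arrays, per the labels' protocols. The deposited scanner files give spot intensity, background-corrected by Agilent Feature Extraction 10.7.3.1 on annotation of build mm9, per the file headers. Partek 6.11.0321 is listed too, per the submitters' processing notes. The authors' deposited table holds the same intensity divided by each array's median, as a match of its values to the scanner files shows.

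From these files, each processed signal was divided by the 75th percentile of its array's non-control spots and put on the log2 scale, outlier spots were left out, and spots of a probe were averaged. The number of arrays, 3 a group, limits the precision, and 9 probes with a missing value were left out. Tests used limma 3.58.1 (lmFit and eBayes, two-sided, Benjamini-Hochberg) in R 4.3.3, checked on simulated data. A gene in a list was represented by its brightest tested probe. For counts at an unadjusted p under 0.05, no share over the probes or genes that passed the signal filter was taken. Current symbols were found for 26762 of the 28390 probes that carry RefSeq accessions.

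The labels do not say that a replicate number marks the same embryo in both layers. Numbers were taken to pair the samples because deviations from the group means correlated at 0.563, 0.480 and 0.372 between same-numbered arrays and at most at 0.114 otherwise. Deviations from a group mean cancel out within each layer, so a positive correlation for a pair lowers those of other pairs. Part of the contrast follows from that centring. The pairing thus comes from the same data, and blocked fits and pair differences rest on that assumption. Replicate 1 was also the dimmest array of each layer, and its part in these correlations was not tested. The main fit has no block, and blocked values are given where they change a call of the 8 Sox genes or a list's count. Alternatives were normexp, quantile and median scaling, the authors' values, other signal filters, 1 value per gene, replicate and slide blocks, array weights, and leaving out each array.

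Named genes are the 8 Sox genes, the other Sox genes, up to 5 called genes per list with the largest differences (otherwise the 2 brightest), and 3 genes most like each member. Additional genes named as not called or near background were chosen after their values were seen. The Sox genes and all 13 lists were chosen with earlier results of these data known.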

Additional observations from a re-analysis of the deposited data

How the results depend on the processing

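The difference of Sox9 was positive in every alternative run, between 1.70 and 2.40, and from 1.81 to 2.33 when each array was left out in turn. Its call ended with normexp (1.79, adjusted p = 0.0550), with no filter (2.09, 0.195), with the replicate block and quantile normalization together (2.06, 0.0575), within slide 1 (1.84, 0.0515), and without outer replicate 3 or intermediate replicate 3. The replicate block alone left Sox9 called and added Sox6 (0.96, adjusted p = 0.0393) and the second Sox11 probe, and it changed no other call among the probes of the 8 Sox genes. Both added calls were lost again when the block was combined with quantile normalization (adjusted p = 0.0795 and 0.0774) or with slide (0.0919 and 0.176). Array weights added both Sox11 probes (0.90 for the first, adjusted p = 0.0156).

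Small differences changed sign with the scaling. Median scaling and the authors' deposited values gave -0.10 for Sox5, -0.15 and -0.35 for the last and middle Sox4 probes and -0.24 for Sox13, and normexp gave -0.066, -0.22 and -0.022 for these Sox4 probes and Sox13. Within slide 1 the middle Sox4 probe was at -0.12 and the coding one at 0.014. Blocking on slide gave the same values, since both fits take the outer layer from outer replicate 1 alone. Leaving out 1 array brought the middle Sox4 probe to between -0.084 and 0.19 (-0.025 and -0.029 without intermediate replicates 1 and 3) and Sox13 to between -0.067 and 0.39.

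Over all tested probes 317 were called higher and 515 lower. The counts higher and lower were 121 and 202 with normexp, 181 and 327 with quantile normalization, 183 and 1177 with median scaling or the authors' values, 280 and 247 for probes with signal on all 6 arrays, 837 and 887 with the replicate block, 35 and 14 with the block and quantile normalization, 619 and 938 with slide as a block, 710 and 1065 within slide 1, and 2100 and 1774 with array weights. With no filter limma called 0 and 0 of 55672 probes, with 5734 at an unadjusted p under 0.05. Leaving out 1 array gave 52 to 528 higher and 23 to 715 lower. The cartilage genes called higher numbered 0 with no filter, 6 with the replicate block and quantile normalization, and 9 to 19 with 1 array left out. The causes were not tested. Signal over background limits Sox8, Sox12 and the dim Sox5 probes.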

Other observations

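Promoter sequence was examined for the cartilage genes called higher. RefSeq windows of the 250 bases before each transcript start (GRCm38.p6) were searched on both strands for ACAAAG and ACAATG, 6-letter forms of the Sox core motif that cannot match at the same position. Of the 20 called genes 17 had a window, 21 windows in all, and 1 window held a match (4.76%), against 25.2% of all 32851 windows. That window belongs to Chadl, a chondroadherin-like matrix protein whose transcript differed by 2.07, at chr15:81697288-81697537 on the minus strand, and is printed with the match in capitals.
Chadl: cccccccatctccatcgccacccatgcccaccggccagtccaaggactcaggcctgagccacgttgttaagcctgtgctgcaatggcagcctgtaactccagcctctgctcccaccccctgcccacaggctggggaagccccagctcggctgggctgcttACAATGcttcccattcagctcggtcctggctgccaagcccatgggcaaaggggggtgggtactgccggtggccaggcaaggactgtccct

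Of the Sox genes themselves, Sox9 had no window and could not be searched. Sox5 held a match in its 1 window and Sox6 in 5 of its 6, while Sox8, Sox4, Sox11, Sox12 and Sox13 held none. A match of 6 letters is a description of the window, and its absence says nothing of binding elsewhere.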
